A study of Mus musculus with 12 samples.

Results

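The Mediator kinase module was followed through 7 genes, Cdk8, Cdk19, Ccnc, Med12, Med12l, Med13 and Med13l, which were taken by name from a table of 54146 mouse gene identifiers. All 7 were found and all 7 passed the filter on low counts, so no member was lost to it. They are the genes for the paralogous kinases of the module, their cyclin, and both paralogs of each of its structural subunits. RNA had been sequenced from 12 samples of BMEL cells, a hepatic progenitor line derived from the embryonic mouse liver. The mouse of origin carried floxed Cdk8 alleles, so the cells of every group derive from that background. There were 3 samples each of Cdk8-/- cells transformed by H-RasG12V (Cdk8 knockout), Cdk19-/- cells transformed by H-RasG12V (Cdk19 knockout), wild-type cells transformed by H-RasG12V (RasG12V), and untransformed wild-type cells. All were growing exponentially on collagen in medium with serum, insulin, IGF2 and EGF. The labels do not say how many clones stand behind a knockout group, which vector carried the Ras gene, which exons were removed, or whether the samples of a group were separate cultures. The p-values therefore stand for the variation among these libraries, part or all of which could be technical.

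Mediator passes signals from transcription factors to RNA polymerase II, and the kinase module binds to it reversibly. CDK8 or CDK19 is the catalytic subunit, cyclin C is required for its activity, MED12 activates the kinase through cyclin C, and MED13 connects the module to the Mediator core. When the module is bound it blocks the contact between Mediator and the polymerase, and its kinase phosphorylates transcription factors such as STATs and SMADs. In vertebrates the kinase, Med12 and Med13 each exist as a pair of paralogs, and a given module is thought to hold only a single member of each pair. In GENCODE M21 (GRCm38) all 7 are protein-coding genes: Cdk8 lies at chr5:146231230-146302874, Cdk19 at chr10:40339564-40483818, Ccnc at chr4:21727701-21759922, Med12 at chrX:101274030-101297465, Med12l at chr3:59005825-59318682 and Med13l at chr5:118560679-118765438 on the plus strand, and Med13 at chr11:86267033-86357602 on the minus strand.

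Libraries held between 24823560 and 36879661 gene counts. The count of a module gene in a library was between 1169 and 1688 for Cdk8, 1303 and 3106 for Cdk19, 1039 and 1808 for Ccnc, 1176 and 1746 for Med12, 4394 and 5484 for Med13 and 578 and 882 for Med13l. For Med12l it was only 21 to 89, so its values carry the largest counting error of the 7. Levels are given as CPM after TMM scaling, the share of a library's gene counts scaled to a common size. Hras, the gene of the transforming oncogene, averaged 451 ± 6.07 CPM in Cdk8 knockout cells, 422 ± 18.7 CPM in Cdk19 knockout cells and 453 ± 123 CPM in RasG12V cells, against 50.0 ± 8.57 CPM in untransformed cells (SD, n = 3 each). RasG12V replicate 3 and untransformed replicate 3 stood apart from the other libraries of their groups: the mean chi-square per gene was 93.5 and 85.4 between RasG12V replicate 3 and the other RasG12V libraries, against 4.61 between those. For untransformed replicate 3 it was 56.0 and 56.9, against 8.17. Hras was lowest in RasG12V replicate 3 among the transformed libraries, at 313 CPM, and that library had the highest share of mitochondrial counts, 1.92%, where the lowest library had 1.18%. For the levels and ratios of the module genes, differences that rest on these libraries are given with and without both of them. Of 14 markers of hepatic progenitors and liver epithelium, 11 or 12 per group reached 1 CPM in every library of the group, while Epcam stayed at or below 0.211 CPM and Onecut1 at or below 1.08 CPM in every library. Alb was under 1 CPM in every transformed library and averaged 3.05 CPM in untransformed cells. Markers of stellate, endothelial and erythroid cells summed to less than 1 CPM in every library, and those of leukocytes to between 3.62 and 7.90 CPM.

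Scaled by length, Med12l had by far the lowest level of the 7 genes in each group. Length is the union of all annotated exons of a gene unless stated, and levels are CPM per kb. Med13 had 14.7 ± 1.04 in the Cdk8 knockout, 16.2 ± 2.19 in the Cdk19 knockout, 15.9 ± 3.08 in RasG12V cells and 14.3 ± 0.325 in untransformed cells (SD, n = 3 each). Med13l, its paralog, had 1.61 ± 0.0964 in the Cdk8 knockout, 1.78 ± 0.0497 in the Cdk19 knockout, 1.63 ± 0.218 in RasG12V cells and 1.39 ± 0.162 in untransformed cells. Med12 had 6.51 ± 0.315 in Cdk8 knockout cells, 6.70 ± 0.0901 in Cdk19 knockout cells, 6.81 ± 0.438 in RasG12V cells and 5.57 ± 0.138 in untransformed cells. For Med12l these were 0.184 ± 0.0261 in the Cdk8 knockout, 0.0666 ± 0.0151 in the Cdk19 knockout, 0.124 ± 0.0385 in RasG12V cells and 0.207 ± 0.00138 in untransformed cells. Med13 thus exceeded Med13l, and Med12 exceeded Med12l, in level per length in each of the 4 groups. Ccnc lay between 7.28 and 9.56 CPM per kb in the group means. The order of the kinases depended on the length used. By exon union, Cdk19 exceeded Cdk8 in untransformed cells, with 15.0 ± 0.712 against 4.71 ± 0.301 CPM per kb. The exons annotated for Cdk8 cover 9832 bases over its 9 transcripts, but its longest protein-coding transcript has 2973 bases, and on that length Cdk8 reached 15.6 ± 0.994 CPM per kb, beside 15.1 ± 0.717 for Cdk19. The deposited gene counts do not say which transcripts the reads came from, so no order of the kinases is given.

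**Figure D1:**
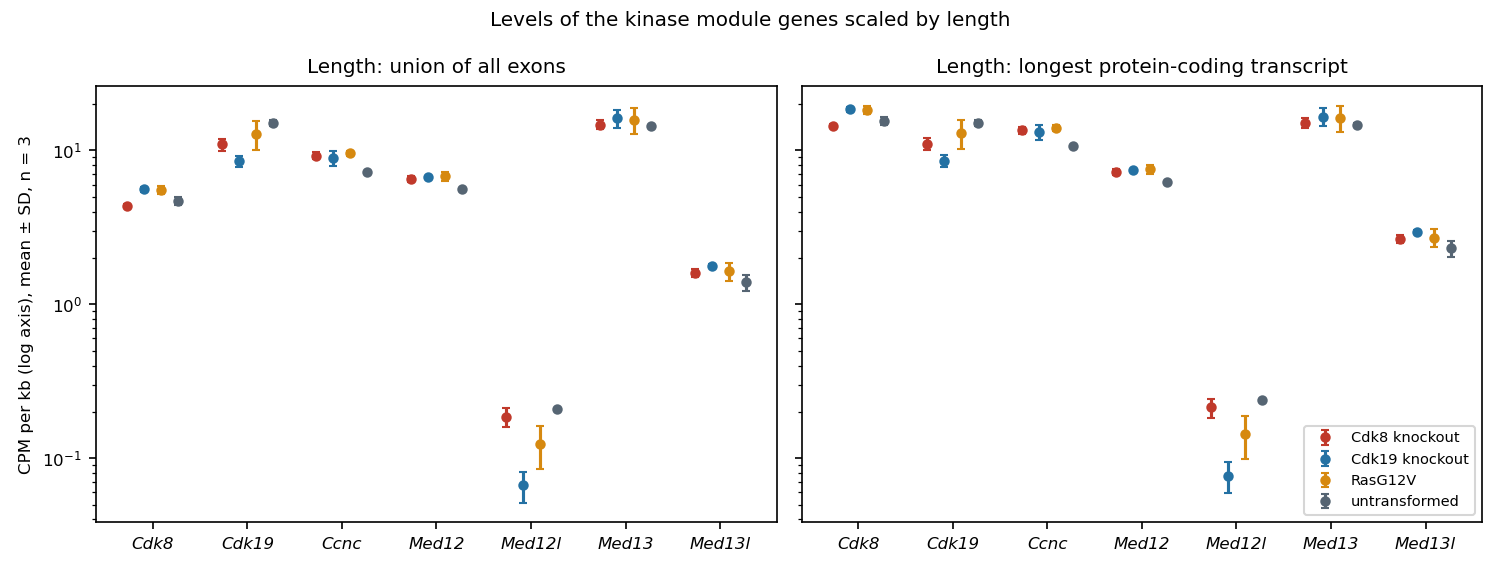
Levels of the 7 kinase module genes scaled by length, as CPM per kb on a log axis (mean ± SD, n = 3 libraries per group), with the union of all exons as length on the left and the longest protein-coding transcript on the right. Med12l is lowest under both lengths, and Cdk8 in untransformed cells moves to 15.6 CPM per kb on the right, against 4.71 CPM per kb on the left.

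Cdk8, Ccnc and Med12 RNA rose and Med12l RNA fell in RasG12V cells relative to untransformed cells. Of the 7 genes, 4 passed the threshold of 0.05 on the adjusted p (edgeR quasi-likelihood test, Benjamini-Hochberg adjustment over 14283 genes), 3 of them higher and 1 lower. Over all genes tested the same rule called 23.4%, with 11.9% higher and 11.5% lower. The median log2 fold change was 0.23 over the 7 genes and -0.0004 over all genes tested. Each of the 4 called genes had libraries that did not overlap between the groups, which held for 32.3% of all genes. The count of called genes was 2 of 7 without any 1 of 5 libraries. These were untransformed replicates 1, 2 and 3, whose loss left 16.2%, 16.7% and 26.9% of all genes called, RasG12V replicate 1 (18.5%) and Cdk8 knockout replicate 3 (21.6%). The count was 6 of 7 without RasG12V replicate 3, where 33.0% of all genes were called, and 1 of 7 in a fit of only the 2 groups, where 11.4% were. With 7 genes, these counts are a description of the module and were given no test of their own. In RNA from whole cultures, fewer cells with a transcript and less of it per cell cannot be told apart.

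**Figure D2:**
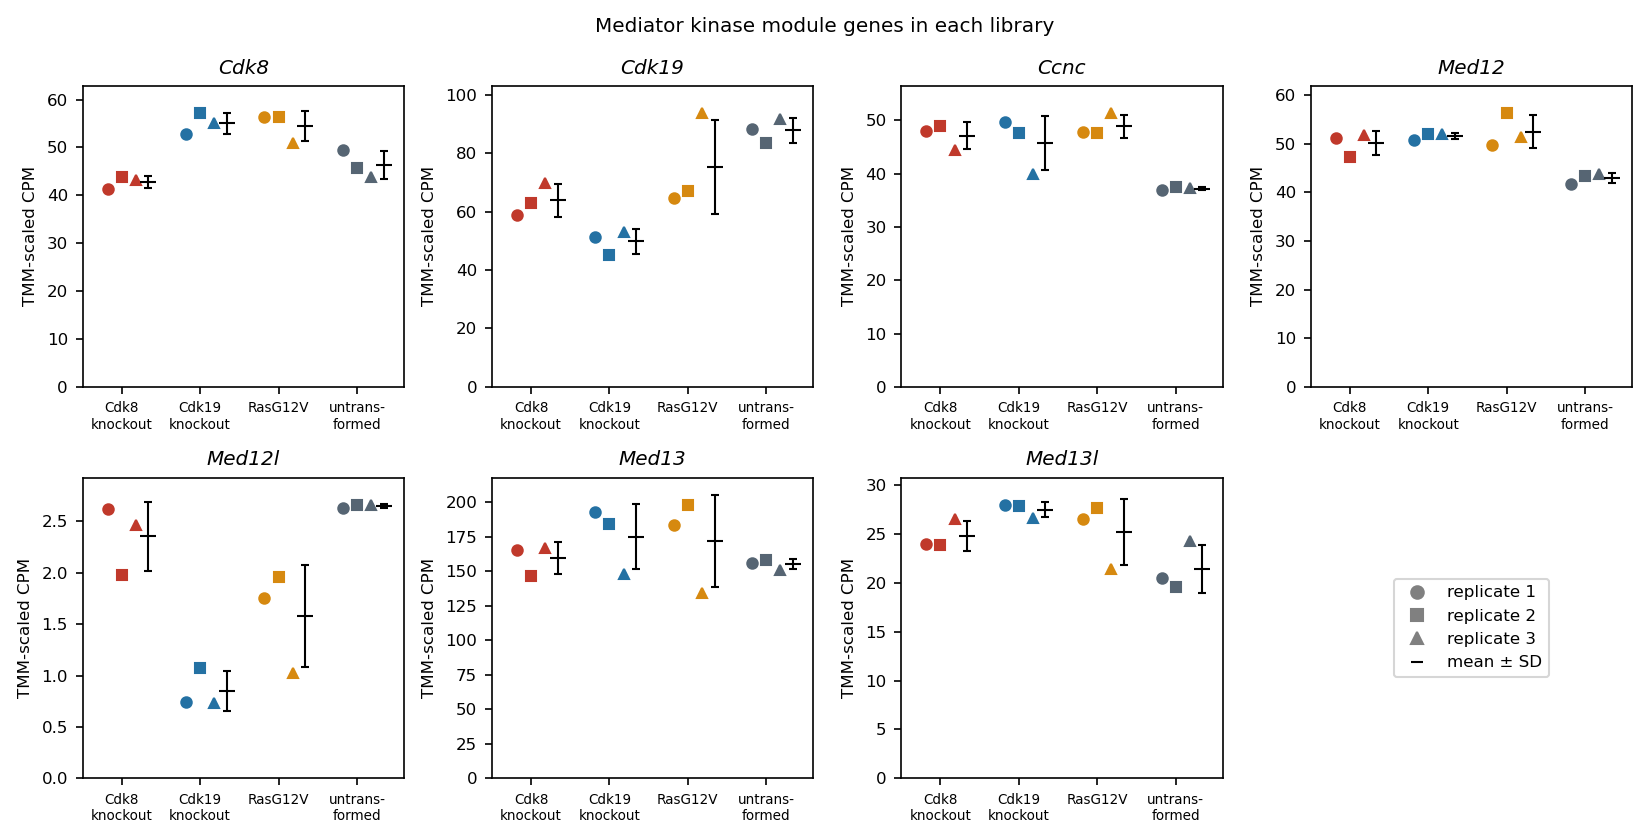
TMM-scaled CPM of each kinase module gene in every library (y axis, from 0), with the Cdk8 knockout, Cdk19 knockout, RasG12V and untransformed groups from left to right; marker shapes give the replicate number and the bars mean ± SD (n = 3). Ccnc and Med12 are lowest in the untransformed libraries, Cdk8 in the Cdk8 knockout and Cdk19 and Med12l in the Cdk19 knockout by group mean.

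Among the kinases, Cdk8 had 56.3, 56.4 and 50.9 CPM in RasG12V replicates 1, 2 and 3, against 49.6, 45.7 and 43.7 CPM in untransformed cells. The groups did not overlap, but the lowest RasG12V library lay close to the highest untransformed one. The log2 fold change was 0.23 with a standard error (SE) of 0.08 and an adjusted p of 0.0435, and 0.23 with an adjusted p of 0.0203 without both replicates 3. With 1 library left out at a time the call held in 6 of 12 fits, with adjusted p between 0.0644 and 0.132 in the others, which lacked replicate 2 or 3 of the untransformed cells, replicate 1 or 2 of the RasG12V cells, or a replicate 3 from one of the knockouts. Cdk19 had 64.7, 67.2 and 93.6 CPM in RasG12V cells, against 88.3, 83.4 and 91.7 CPM in untransformed cells. RasG12V replicate 3 lay above every untransformed library, and the other RasG12V libraries lay below all of them. Over all libraries Cdk19 had a log2 fold change of -0.22 (SE 0.13, adjusted p = 0.25). Without both replicates 3 it was -0.40 (SE 0.09, adjusted p = 0.00133), and Cdk19 was called lower.

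Ccnc, which encodes cyclin C, had 47.7, 47.6 and 51.3 CPM in RasG12V cells, against 36.9, 37.5 and 37.2 CPM in untransformed cells. The libraries of each group lay close together and far from those of the other. Its log2 fold change of 0.39 (SE 0.09, adjusted p = 0.00621) was called in each of the 12 fits with 1 library left out, and without both replicates 3 (0.34, adjusted p = 0.0059). Med12, the subunit that activates the kinase, had 49.8, 56.3 and 51.3 CPM in RasG12V cells, against 41.7, 43.3 and 43.8 CPM in untransformed cells. The groups did not overlap, and Med12 rose by a log2 fold change of 0.29 (SE 0.07, adjusted p = 0.0121), a call that was lost without untransformed replicate 1 (adjusted p = 0.0594) and held in the other 11 fits. Its adjusted p was 0.00461 without both replicates 3.

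Med12l, the low-level paralog of Med12, had 1.75, 1.96 and 1.02 CPM in RasG12V cells, against 2.63, 2.66 and 2.65 CPM in untransformed cells. All RasG12V libraries lay below the untransformed ones, and RasG12V replicate 3 was the lowest of them. The gene fell with a log2 fold change of -0.76 (SE 0.24, adjusted p = 0.0413). Without both replicates 3 the value was -0.53 (SE 0.24, adjusted p = 0.0846), which did not pass, and with 1 library left out at a time it passed in 3 of 12 fits.

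Med13, which links the module to the core, had 184, 198 and 134 CPM in RasG12V cells, against 156, 158 and 151 CPM in untransformed cells. RasG12V replicate 3 lay below the untransformed libraries and the other RasG12V libraries above them. Med13l had 26.5, 27.7 and 21.4 CPM in RasG12V cells, against 20.5, 19.5 and 24.3 CPM in untransformed cells, with the replicates 3 again crossing over. Neither passed over all libraries, with log2 fold changes of 0.15 for Med13 (SE 0.13, adjusted p = 0.474) and 0.23 for Med13l (SE 0.11, adjusted p = 0.171). When both replicates 3 were left out, Med13 stood at 0.27 (SE 0.10, adjusted p = 0.0451) and Med13l at 0.42 (SE 0.09, adjusted p = 0.000826), and both were called higher. In that fit 5 of the 7 genes rose and 1 fell, where 40.0% of all genes were called, 19% higher and 21% lower. The mitochondrial share and the low Hras level moved with RasG12V replicate 3, and their part in these differences was not tested.

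The sequences upstream of the genes that rose are shown with the ETS core marked, which was only 1 of the motifs searched. It was picked for display because Ccnc and Med12 held it. Cdk8, which also rose, and the other module promoters in the RefSeq table lacked it. Its part in the rises was not tested. Each run holds the 250 bases before the RefSeq start (GRCm38.p6), 5′ to 3′ on the plus strand. Capitals mark the ETS core CCGGAA on either strand, so TTCCGG is its reverse complement.
Cdk8, chr5:146231000-146231249: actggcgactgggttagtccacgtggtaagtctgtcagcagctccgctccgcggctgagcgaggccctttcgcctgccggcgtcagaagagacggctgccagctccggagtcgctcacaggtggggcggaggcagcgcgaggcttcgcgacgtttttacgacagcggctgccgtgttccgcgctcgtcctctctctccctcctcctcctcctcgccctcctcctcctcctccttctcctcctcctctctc
Ccnc, chr4:21727451-21727700: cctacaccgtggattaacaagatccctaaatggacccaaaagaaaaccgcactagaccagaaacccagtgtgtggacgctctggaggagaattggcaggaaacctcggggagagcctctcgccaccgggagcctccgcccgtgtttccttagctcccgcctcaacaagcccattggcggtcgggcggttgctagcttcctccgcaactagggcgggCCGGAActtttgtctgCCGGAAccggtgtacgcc
Med12, chrX:101273841-101274090: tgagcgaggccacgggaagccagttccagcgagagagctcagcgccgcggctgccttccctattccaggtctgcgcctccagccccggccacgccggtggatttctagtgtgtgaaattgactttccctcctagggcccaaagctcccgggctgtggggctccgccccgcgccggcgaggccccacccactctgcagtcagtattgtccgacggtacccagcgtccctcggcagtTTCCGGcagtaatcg
In windows from 250 bases before to 50 after the start, searched on both strands, the ETS core was found 2 times for Ccnc and 1 time for Med12, and 0 times for Cdk8, Med12l, Med13 and Med13l. It occurred in 14.9% of the 32851 promoters of the table. The Ccnc window also held the NF-Y letters CCAAT 2 times, a motif found in 37.4% of promoters and in none of the other 5 windows. The SP1 box GGGCGG was present in every one of the 6 windows, against 35.7% of all promoters, and the CRE letters TGACGTCA, the AP-1 letters TGANTCA, the NRF1 letters GCGCATGC and the YY1 letters AAGATGGC were in none of them. The table gave 6 of the 7 genes. Their windows held 24 to 61 CpG sites each, against a median of 7 per promoter over the whole table. The shares above are for all promoters and were not matched for CpG content. The motif matches are letters in a window, and no binding was measured.

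No module gene passed the threshold between the Cdk8 knockout and RasG12V cells, and Cdk8 itself came nearest. Cdk8 had 41.4, 43.8 and 43.3 CPM in the Cdk8 knockout, against 56.3, 56.4 and 50.9 CPM in RasG12V cells. The groups did not overlap, as was the case for 12.5% of all genes, and Cdk8 stood at 0.786 of its RasG12V level on the fitted scale. The log2 fold change was -0.35 (SE 0.08, 95% interval -0.51 to -0.18), with an unadjusted p of 0.000636 and an adjusted p of 0.415 in edgeR. The rule called 0 of 7 module genes and 0 of all genes tested, a background of 0%. At an unadjusted p below 0.05 it was 2 of the 7 genes and 871 genes in all, 6.10% of those tested. DESeq2 called 1 of the 7 and 0.21% of all genes. Reads were counted over the whole gene and the labels do not name the deleted exons, so the level measures RNA from the locus and not intact transcripts.

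Cdk19 did not pass the threshold in the Cdk8 knockout. It had 58.9, 62.9 and 69.9 CPM there, against 64.7, 67.2 and 93.6 CPM in RasG12V cells. The groups overlapped, and the log2 fold change of -0.24 had a 95% interval of -0.52 to 0.05 (adjusted p = 0.856). Without both replicates 3 it was -0.04, with an interval of -0.21 to 0.13, while Cdk8 at -0.39 (SE 0.07, adjusted p = 0.00659) was then called lower. It was the only call among the 7 in that fit, where 1.59% of all genes were called. Med12l had 2.62, 1.98 and 2.46 CPM in the Cdk8 knockout, against 1.75, 1.96 and 1.02 CPM in RasG12V cells. All knockout libraries lay above all RasG12V libraries, the nearest pair almost touching. In edgeR the gene stood at a log2 fold change of 0.59 (SE 0.25, adjusted p = 0.804) with all libraries. Leaving out both replicates 3 gave 0.34 (SE 0.22, adjusted p = 0.424). Ccnc, Med12, Med13 and Med13l overlapped between the groups, with log2 fold changes between -0.11 and -0.02.

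Cdk19 RNA in the Cdk19 knockout stood at 0.662 of its RasG12V level on the fitted scale, short of the adjusted threshold. It had 51.2, 45.0 and 53.1 CPM in the Cdk19 knockout, against 64.7, 67.2 and 93.6 CPM in RasG12V cells. Every knockout library lay below every RasG12V library, and 14.5% of all genes had groups apart. The log2 fold change was -0.60 (SE 0.13, 95% interval -0.88 to -0.31), with an unadjusted p of 0.00062 and an adjusted p of 0.243. Again 0 of 7 module genes were called, where 2 of all genes tested were, a background of 0.014%. At an unadjusted p below 0.05 these were 2 of 7 and 1089 genes in all, 7.62%, and DESeq2 called 1 of the 7 and 0.462% of all genes. The limit on whole-gene counts applies here as well.

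Cdk8 in the Cdk19 knockout had 52.7, 57.1 and 55.2 CPM, against 56.3, 56.4 and 50.9 CPM in RasG12V cells. The groups overlapped. The log2 fold change was 0.01 with a 95% interval of -0.15 to 0.18, and -0.03 without both replicates 3 (adjusted p = 0.976 and 0.888). Med12l had 0.741, 1.07 and 0.736 CPM in the Cdk19 knockout, from 21, 31 and 22 counts, against 1.75, 1.96 and 1.02 CPM in RasG12V cells, from 48, 48 and 34 counts. Only RasG12V replicate 3 fell within the range of the knockout. Med12l thus had a log2 fold change of -0.88 (SE 0.27, adjusted p = 0.431) over all libraries, and of -1.12 (SE 0.25, adjusted p = 0.0251) when both replicates 3 were left out. In that fit Cdk19 (-0.40, SE 0.08, adjusted p = 0.0136) and Med12l were called lower, 2 of the 7 genes, where 2.01% of all genes were called. Hras was called lower in the same fit, with a log2 fold change of -0.30 (SE 0.06, adjusted p = 0.0133), and its part in the module's values was not tested. Ccnc, Med12, Med13 and Med13l overlapped between the Cdk19 knockout and RasG12V cells, with log2 fold changes between -0.10 and 0.13. Both knockouts were set against the same 3 RasG12V libraries, so these comparisons are not independent of each other.

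**Figure D3:**
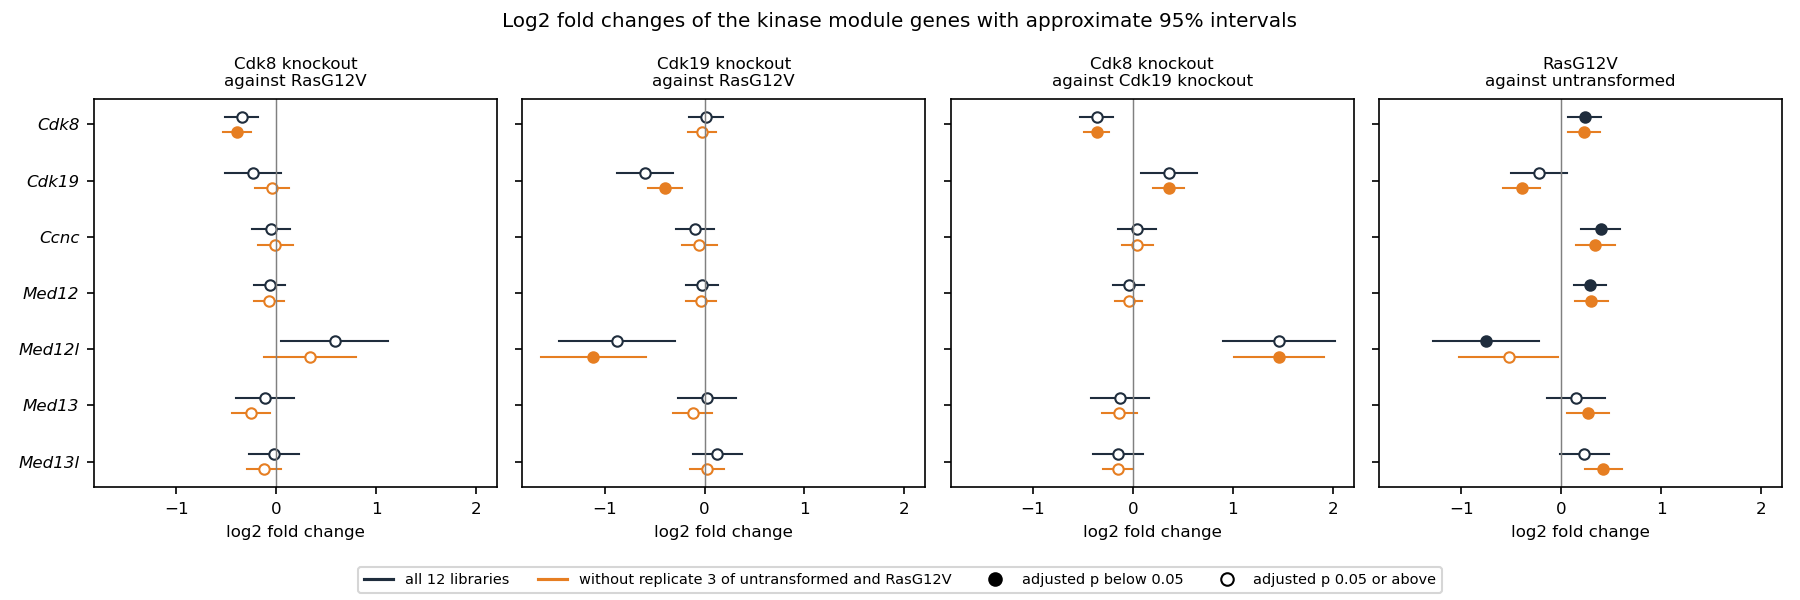
Log2 fold changes of the 7 genes (x axis, first-named group over second, approximate 95% intervals) in 4 comparisons, with all 12 libraries and without replicate 3 of the untransformed and RasG12V groups; filled points have an adjusted p below 0.05. With all libraries the knockout panels hold no filled point, and without both replicates 3 Cdk8 (-0.39) is filled in the Cdk8 knockout, and Cdk19 (-0.40) and Med12l (-1.12) in the Cdk19 knockout.

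Set directly against each other, the knockouts lay farthest apart in Med12l, which did not pass with all libraries. It had 2.62, 1.98 and 2.46 CPM in the Cdk8 knockout, from 74, 73 and 81 counts, against 0.741, 1.07 and 0.736 CPM in the Cdk19 knockout. The lowest Cdk8 knockout library was well above the highest Cdk19 knockout library. The ratio was 2.76 on the fitted scale, a log2 fold change of 1.46 (SE 0.26, 95% interval 0.90 to 2.03) with an adjusted p of 0.0644. The log2 fold change of the Cdk8 knockout over the Cdk19 knockout was -0.36 for Cdk8 (SE 0.08, adjusted p = 0.134) and 0.36 for Cdk19 (SE 0.13, adjusted p = 0.546). Both kinases had groups that did not overlap, as did 20.7% of all genes.

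In the edgeR fit of all 12 libraries 0 of 7 genes were called between the knockouts, where 15 of all genes were, a background of 0.105%. At an unadjusted p below 0.05 there were 3 of 7, and 1027 genes in all, 7.19%. DESeq2 called 2 of the 7 and 0.784% of all genes. This comparison contains neither of the libraries that stood apart. They enter it through the spread shared by all groups, and through the filter, the scaling and the adjustment over genes. With both of them left out, Med12l (1.46, SE 0.22, adjusted p = 0.000317), Cdk8 (-0.36, SE 0.06, adjusted p = 0.00112) and Cdk19 (0.36, SE 0.07, adjusted p = 0.00611) were called, 3 of 7 where 5.32% of all genes were called. The fold changes were nearly the same in the 2 fits and the standard errors were smaller. A fit of only the 2 knockout groups also called 3 of the 7, and 3.63% of all genes. Without RasG12V replicate 3 alone 2 of the 7 and 0.913% of all genes were called, and without untransformed replicate 3 alone 1 of the 7 and 0.501%. Ccnc, Med12, Med13 and Med13l had log2 fold changes between -0.15 and 0.04 between the knockouts and none was called in these fits. For Med13l the knockout groups did not overlap, with 24.0, 23.9 and 26.5 CPM in the Cdk8 knockout, against 28.0, 27.9 and 26.6 CPM in the Cdk19 knockout. The nearest libraries almost touched, and 20.7% of all genes had no overlap in this comparison.

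Ccnc and Med12 were also called higher in each knockout against untransformed cells. These comparisons and that of RasG12V cells use the same 3 untransformed libraries, so they are not independent of each other. The Cdk8 knockout had 3 of 7 genes called, where 24.4% of all genes were called. Ccnc had 48.1, 49.0 and 44.4 CPM and Med12 51.1, 47.4 and 51.9 CPM in the Cdk8 knockout, all above the untransformed values of 36.9 to 37.5 CPM for Ccnc and 41.7 to 43.8 CPM for Med12. Ccnc rose by 0.34 (SE 0.09, adjusted p = 0.0132) and Med12 by 0.22 (SE 0.07, adjusted p = 0.0409) on the log2 scale. Cdk19 fell, with a log2 fold change of -0.46 (SE 0.13, adjusted p = 0.0214). Cdk8 itself averaged 42.8 ± 1.3 CPM there, against 46.3 ± 2.96 CPM in untransformed cells (SD, n = 3 each), with overlapping libraries, and its log2 fold change of -0.11 (SE 0.08, adjusted p = 0.325) was not called. Without untransformed replicate 1 the count of called genes was 0 of 7, where 17.4% of all genes were called, and without Cdk8 knockout replicate 1 it was 1 of 7, where 17.3% were. Without both replicates 3, Ccnc and Med12 again rose, Cdk19 fell, and Med13l rose as well (log2 fold change 0.30, adjusted p = 0.00584), 4 of 7 where 42.2% of all genes were called.

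The Cdk19 knockout had 6 of 7 genes called against untransformed cells, 4 higher and 2 lower, where 25.3% of all genes were called, 12.4% higher and 12.9% lower. Cdk19 lay at 49.8 ± 4.22 CPM in the Cdk19 knockout and 87.8 ± 4.16 CPM in untransformed cells (SD, n = 3 each), a log2 fold change of -0.82 (SE 0.13, adjusted p = 0.000619). Med12l fell to 0.849 ± 0.192 CPM in the Cdk19 knockout, against 2.65 ± 0.0176 CPM in untransformed cells, which is 0.322 of the untransformed level (log2 fold change -1.64, SE 0.26, adjusted p = 0.000569). Both held in each of the 12 fits with 1 library left out. The rises were smaller, with log2 fold changes of 0.25 for Cdk8 (adjusted p = 0.0311), 0.30 for Ccnc (adjusted p = 0.0256), 0.26 for Med12 (adjusted p = 0.0175) and 0.36 for Med13l (adjusted p = 0.0351). They passed in 7 to 9 of the 12 fits. Leaving out untransformed replicate 2 left 2 of the 7 genes and 19% of all genes called. Leaving out untransformed replicate 1 or Cdk19 knockout replicate 2 or 3 left 3 of the 7, with 18.6%, 18.1% and 20.6% of all genes called. With both replicates 3 left out the same 6 genes were called, where 43.6% of all genes were, with Cdk19 at -0.79 and Med12l at -1.64 on the log2 scale.

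Ordered by group mean, Cdk8 was highest in the Cdk19 knockout, then in RasG12V cells, then in untransformed cells and lowest in the Cdk8 knockout. Only the step between RasG12V and untransformed cells was called. Cdk19 ran from the Cdk19 knockout as the lowest through the Cdk8 knockout and RasG12V cells to untransformed cells as the highest, and no step between neighbours was called. For Ccnc and Med12 the 3 transformed groups could not be separated and untransformed cells were lowest, with the step to the nearest transformed group called for both. No step was called for Med12l, Med13 or Med13l, although the steps of Med12l from untransformed cells to the Cdk8 knockout and from there to RasG12V cells had no overlap between libraries.

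The balance between paralogs was measured as the log2 ratio of their counts within a library, which needs no scaling between libraries. Counts are not divided by length here, so the ratios are compared between groups and say nothing of which paralog is more abundant. The ratio of Cdk19 to Cdk8 was 0.51, 0.52 and 0.69 in Cdk8 knockout cells, -0.04, -0.34 and -0.06 in Cdk19 knockout cells, 0.20, 0.25 and 0.88 in RasG12V cells and 0.83, 0.87 and 1.07 in untransformed cells. The Cdk19 knockout lay below every other library. RasG12V replicate 3 reached into the untransformed range, and the other RasG12V libraries lay below the Cdk8 knockout. Group means spanned 1.07 on the log2 scale. An exact permutation test over all 369600 arrangements of the 12 libraries gave p = 0.00266 (adjusted over the 3 pairs, 0.00399, and 0.000476 without both replicates 3). Each gene of this ratio is itself knocked out in a group, so the p takes in changes at the edited loci.

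The ratio of Med12l to Med12 was -4.28, -4.57 and -4.39 in Cdk8 knockout cells, -6.07, -5.58 and -6.11 in Cdk19 knockout cells, -4.82, -4.83 and -5.63 in RasG12V cells and -3.98, -4.02 and -4.04 in untransformed cells. Untransformed cells were highest, the Cdk8 knockout next, and RasG12V replicate 3 lay within the range of the Cdk19 knockout. The span of the group means was 1.91, with an exact permutation p = 0.00013 (adjusted, 0.00039, and 0.000476 without both replicates 3). The Cdk8 knockout exceeded the Cdk19 knockout by 1.51. The ratio of Med13l to Med13 averaged -2.68 ± 0.09 in the Cdk8 knockout, -2.66 ± 0.16 in the Cdk19 knockout, -2.76 ± 0.10 in RasG12V cells and -2.86 ± 0.20 in untransformed cells (SD, n = 3 each). All 4 groups overlapped, and the exact permutation test did not pass, with p = 0.372 (adjusted p = 0.067 without both replicates 3). A pair of groups of 3 libraries cannot reach a p below 0.10 in such a test, so single pairs were described only.

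**Figure D4:**
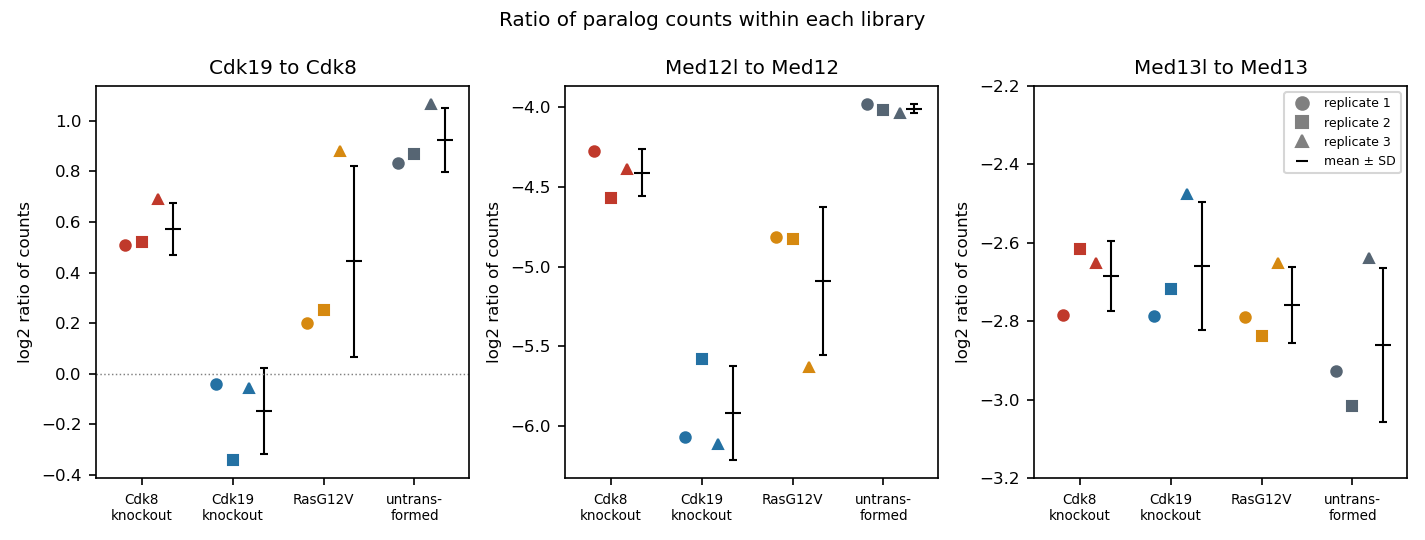
Log2 ratio of the counts of paralogs within each library (y axis; the panels have different ranges that do not start at 0) for the Cdk8 knockout, Cdk19 knockout, RasG12V and untransformed groups, with marker shapes for the replicate number and bars for mean ± SD (n = 3). The Cdk19 knockout has the lowest Cdk19 to Cdk8 ratios, between -0.34 and -0.04, and the Med13l to Med13 ratios of the 4 groups overlap.

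Paralogs were compared by the longest coding sequence of each gene that began with ATG and held whole codons. Those of Cdk8 and Cdk19 were 74.7% identical over the aligned coding bases, with 23 bases as the longest identical run. For Med12 and Med12l these values were 65.1% and 24 bases, and for Med13 and Med13l 61.9% and 20 bases. Some module genes overlap another gene. On the opposite strand, Brip1os, an antisense RNA gene that shares 800 exonic bases with Med13, had 3980 to 6977 counts per library, and Tstd3 shares 276 exonic bases with Ccnc and had 225 to 596 counts. The strand-specific column counts genes on opposite strands apart, and each library had 24.7 to 28.9 times as many reads in it as in the forward-strand column. It cannot separate Med12 from Gm21986, which shares 749 exonic bases with it on the same strand and had 2 to 19 counts. Med12l shares 1948 exonic bases with Igsf10 on the opposite strand, which had 0 to 2 counts, and the Med12l count in the unstranded column was 0.559 to 0.833 of that used here. With the unstranded column Med12l was not called between RasG12V and untransformed cells, and 3 of 7 genes were, with 22.6% of all genes called.

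The module genes differed in how their levels ran across the 12 libraries. As a description over log2 CPM, Pearson's r was 0.74 between Med12 and Med13l, 0.73 between Ccnc and Med12, and 0.66 between Med13 and Med13l. It was -0.39 between Cdk8 and Cdk19, -0.75 between Cdk19 and Med13l and -0.66 between Cdk8 and Med12l. These libraries fall into a few groups and share scaling, so no p is attached. The correlations, and the likeness below, are given with all libraries only. RasG12V replicate 3 lay away from the other RasG12V libraries in Cdk19, Med13 and Med13l, and its part in these values was not tested. Among 9409 other protein-coding genes with at least 5 CPM on average, the profiles most like each member were those of Ecpas (r = 0.88), Rnpc3 and Ankle2 for Cdk8, and Cpe (r = 0.97), Mlph and Itga1 for Cdk19. For Ccnc they were Cct2 (r = 0.94), Katnal1 and Atp6v1a. For Med12 they were Rasal2 (r = 0.96), Dmtf1 and Dmxl2, and for Med12l Scly (r = 0.90), Dmd and Cdh6. For Med13 they were Tnpo1 (r = 0.95), Bdp1 and Mdn1, and for Med13l Npepps (r = 0.95), Zfp871 and Trak1. No gene appears in more than 1 of these lists of 3.

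The Mediator core, to which the module binds, was followed through 26 genes. All 26 were tested, and between RasG12V and untransformed cells 1 rose and 1 fell, where 23.4% of all genes were called. Med10 had 63.9 CPM in RasG12V cells and 49.7 CPM in untransformed cells (log2 fold change 0.36, SE 0.09, adjusted p = 0.0111), and Med11 had 11.5 CPM in RasG12V cells and 16.0 CPM in untransformed cells (log2 fold change -0.47, SE 0.10, adjusted p = 0.00415). Med10 is a subunit of the middle part of the core and Med11 of the head. The median log2 fold change of the core was -0.02. With both replicates 3 left out, 3 core genes rose and 1 fell, where 40.0% of all genes were called. Med10 rose and Med11 fell in both knockouts against untransformed cells as well, joined by Med17, a head subunit, in the Cdk19 knockout (log2 fold change 0.24, SE 0.07, adjusted p = 0.0231). No core gene was called in edgeR between a knockout and RasG12V cells or between the knockouts, where 1, 0 and 1 of 26 had an unadjusted p below 0.05. These counts are, in turn, for Cdk8 knockout over RasG12V, Cdk19 knockout over RasG12V and Cdk8 knockout over Cdk19 knockout. In the same order, 6.10%, 7.62% and 7.19% of all genes had an unadjusted p below 0.05.

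Of 12 genes for the other transcription kinases and their cyclins, 3 rose and 1 fell between RasG12V and untransformed cells, where 23.4% of all genes were called. Ccnk, the cyclin of CDK12 and CDK13, had 98.9 CPM in RasG12V cells and 81.4 CPM in untransformed cells (log2 fold change 0.28, SE 0.07, adjusted p = 0.0157). Cdk7, the kinase of TFIIH, and Ccnt1, a cyclin of CDK9, also rose, with log2 fold changes of 0.24 (adjusted p = 0.035) and 0.44 (adjusted p = 0.0364). Ccnl2, a cyclin of CDK11, fell, with 53.4 CPM in RasG12V cells and 75.3 CPM in untransformed cells (log2 fold change -0.49, SE 0.14, adjusted p = 0.0194). Against untransformed cells, Ccnk rose and Ccnl2 fell in both knockouts, and Cdk7 rose in the Cdk19 knockout. None of the 12 was called between a knockout and RasG12V cells or between the knockouts. In the order given for the core, 2, 0 and 1 had an unadjusted p below 0.05, against 6.10%, 7.62% and 7.19% of all genes.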

How the data were processed

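RNA was measured in 12 samples, 4 groups of 3. The authors deposited gene counts, 1 table per library with unstranded, forward-strand and reverse-strand columns, for which the submitters' processing notes list STAR 2.6.0a and GRCm38.p6. Which annotation was used is not given in the sources used here. A TruSeq RNA kit made the libraries from total RNA, which the labels call depleted of rRNA, per the labels' protocols. Reverse-strand counts were used. Library sizes leave out unmapped reads (2.10% to 3.34%), reads with several alignments (23.0% to 26.3%), reads outside genes (4.31% to 5.85%) and ambiguous reads (0.963% to 1.04%). A count of 0 allows up to 3 counts, 0.0813 to 0.121 CPM in a library, and intervals of this kind cover counting error only. Symbols, coordinates and lengths came from GENCODE M21, which held 54079 of the 54146 identifiers.

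All 12 libraries entered 1 fit in edgeR 4.0.16 (R 4.3.3): filterByExpr by group, TMM, robust glmQLFit, glmQLFTest, and Benjamini-Hochberg adjustment over 14283 genes at 0.05. The SE is approximate and was derived from the fold change and its quasi-likelihood F. Paralog ratios used counts plus 0.5 and an exact permutation test, two-sided by construction. Alternatives were other scalings and filters, DESeq2 1.42.0, limma-voom (limma 3.58.1), the unstranded column, a replicate block, fits of the 2 groups compared, and libraries left out. The fit and the permutation test were tested on simulated data. There the fit recovered 30 of 100 genes changed 1.3-fold and 89 of 100 changed 2-fold, with 5 false calls. A gene that was not called may therefore still have changed, and not only by a small fold. Med12l, at a ratio of 2.76 between the knockouts, was not called. The simulation held 200 changed genes. At most 15 genes were called between the knockouts or between a knockout and RasG12V cells, so the simulated recovery need not hold there.

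The 7 genes and the lists were chosen with earlier results of these data known. Named were the 7 genes, Hras, up to 4 called genes of each list per comparison, and the 3 genes most like each member. The main fit did not pair samples by replicate number. Of 18 same-number correlations 8 exceeded 0.1, but different-number correlations were not set beside them, so pairing was not settled. Promoter sequences came from RefSeq. Figures were drawn with matplotlib.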

Additional observations from a re-analysis of the deposited data

Results flagged for a closer look

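Reads on the strand opposite to 2 of the genes differed between groups, outside the main measurement. Cdk8 averaged 40.7 forward-strand counts in RasG12V cells and 17.3 in untransformed cells, a log2 fold change of 1.09 (SE 0.32, adjusted p = 0.0271 in edgeR over 7633 genes, of which 7.39% were called). Replicates 1, 2 and 3 had 41, 19 and 62 counts in RasG12V cells, against 18, 16 and 18 in untransformed cells. The highest came from RasG12V replicate 3, which stood apart, and replicate 2 lay close to untransformed cells. Forward-strand differences are given with all libraries only. Ccnc averaged 194 forward-strand counts in the Cdk19 knockout and 125 in untransformed cells, a log2 fold change of 0.71 (adjusted p = 0.0243, with 5.42% of genes called). Forward-strand reads made up 1.07% to 3.54% of the reads of Cdk8 and 8.72% to 14.9% of those of Ccnc, where Tstd3 lies on the opposite strand. Their source was not tested.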

How the results depend on the processing

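Alternatives gave 990 fold changes, of the 7 genes in all comparisons and of Hras against untransformed cells only. Of these, 894 kept their direction and their side of the threshold, 54 lost the call and 25 gained it. The remaining 17 changed sign, all at an adjusted p of 0.588 or more. The other scalings, limma-voom and the filter of 1 CPM in 3 libraries left each count of called module genes within 1.5 times. With no filter on low counts, more genes enter the fit and the adjustment, and the standard errors changed as well. Between RasG12V and untransformed cells the SE of Cdk8 went from 0.076 to 0.112. Between the Cdk19 knockout and RasG12V cells that of Cdk19 went from 0.131 to 0.109. Called were 1 of 7 between RasG12V and untransformed cells, 1 between the Cdk19 knockout and RasG12V cells, 1 between the knockouts, and 3 between the Cdk19 knockout and untransformed cells. The shares of all genes called were, in turn, 11.3%, 0.28%, 0.36% and 12.9%. DESeq2 called 1 for each knockout against RasG12V cells and 2 between the knockouts, with 0.21%, 0.462% and 0.784% of all genes called. Without both replicates 3 the counts were 1 for the Cdk8 knockout and 2 for the Cdk19 knockout against RasG12V cells, and 3 between the knockouts, with 1.59%, 2.01% and 5.32% of all genes called. Fits of only the 2 groups compared called 1 between RasG12V and untransformed cells and 3 between the knockouts, with 11.4% and 3.63% of all genes called. With 1 library left out, the counts ran from 2 to 6 between RasG12V and untransformed cells, 0 to 2 between the knockouts, 0 to 3 for the Cdk8 knockout and 2 to 6 for the Cdk19 knockout against untransformed cells, and stayed at 0 for each knockout against RasG12V cells. The share of all genes called ran, in the same turn, from 16.2% to 33.0%, 0% to 0.913%, 17.3% to 33.5% and 18.1% to 35.0%, and for the knockouts against RasG12V cells from 0% to 0.0206% (Cdk8 knockout) and 0% to 0.144% (Cdk19 knockout). The causes were not tested.

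With the replicate number as a block in edgeR, the same genes were called between RasG12V and untransformed cells. Their adjusted p was 0.0454 for Cdk8, 0.00755 for Ccnc, 0.0160 for Med12 and 0.0409 for Med12l. The share of all genes called in that fit is not given, so the calls have no background beside them. For the ratios, the adjusted p with this block was 0.00521 for Cdk19 to Cdk8 and for Med12l to Med12 and 0.111 for Med13l to Med13. Same-number correlations ran from -0.168 to 0.282, which does not settle whether equal numbers mark pairs. With 1 library left out, the adjusted p of the ratios ran from 9.74e-05 to 0.0245 for Cdk19 to Cdk8, from 9.74e-05 to 0.0105 for Med12l to Med12 and from 0.0811 to 0.711 for Med13l to Med13. The value 9.74e-05 comes from a p of 6.49e-05, the smallest these permutations can give.

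Sign changes were as follows, with ranges over fits with 1 library left out. For the Cdk8 knockout against RasG12V cells, Med13l ran from -0.12 to 0.057 and was 0.0043 with the unstranded column, and Med13 ran from -0.25 to 0.011. For the Cdk19 knockout against RasG12V cells, Cdk8 ran from -0.033 to 0.045 and was -0.027 without both replicates 3, Med13 ran from -0.12 to 0.14 and was -0.12 without both replicates 3, and Med12 ran from -0.057 to 0.029. Between the knockouts, Med12 ran from -0.070 to 0.0040 and Ccnc from -0.044 to 0.11. In the Cdk8 knockout against untransformed cells, Med13 ran from -0.0019 to 0.12.

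Levels per kb in untransformed cells moved with the length used. With the longest transcript they were 11.9 for Cdk8, 10.7 for Ccnc, 6.19 for Med12, 0.241 for Med12l, 14.7 for Med13 and 2.31 for Med13l. The longest protein-coding transcript, an alternative chosen after seeing the data, gave 15.6 for Cdk8 and the same values for the others. Cdk19 stayed at 15.1. Depth limits Med12l most, with 21 to 89 counts per library.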
